A study of Homo sapiens with 9 samples.

Results

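The human APOBEC3 genes encode cytidine deaminases that restrict retroviruses and retroelements. All 7 of them, APOBEC3A, APOBEC3B, APOBEC3C, APOBEC3D, APOBEC3F, APOBEC3G and APOBEC3H, were found among the 20265 genes of the count table by matching the Ensembl identifier to the symbol on chromosome 22. They were followed by bulk RNA-seq in 9 libraries of U937 cells that carry Cas9. U937 is an established human monocytic line, and Cas9 is the nuclease used to edit genes. Of these libraries, 3 came from WT cells, 3 from cells whose genotype is given as IRF2KO, a knockout of the transcription factor IRF2, and 3 from cells whose genotype is given as IRF2KO_pIRF2, that is, knockout cells with something named pIRF2 that the labels do not describe. The 3 groups share the U937 background and no added stimulus is named for any of them. The labels do not say how the locus was edited, whether the edited cells are a single clone, or whether replicates were separate cultures, so every p-value below measures only the spread between these libraries, which may be technical. In bulk samples, fewer expressing cells and less RNA per cell cannot be told apart.

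APOBEC3 enzymes turn cytosine into uracil in single-stranded DNA. Packaged into a retrovirus, they mutate the viral DNA as it is copied, and several of them also block its synthesis without editing. HIV-1 answers with Vif, which draws APOBEC3 proteins to a cullin-5 ubiquitin ligase. Expression of APOBEC3 genes in myeloid cells is known to respond to interferon, and the interferon regulatory factors IRF1 and IRF2 bind the same DNA elements in interferon-responsive genes. APOBEC3A and APOBEC3B can also deaminate the cell's own DNA, and APOBEC3B has been tied to mutations in tumours.

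The sequences printed here encode the catalytic signature of the family, because they show how the members are related and where a read cannot be given to a single gene. They were taken from GENCODE 29 coding transcripts (GRCh38, plus strand), and capitals mark the codons of the histidine, the glutamate and the 2 cysteines of the zinc-binding motif. APOBEC3A, APOBEC3C and APOBEC3H held 1 such motif, and APOBEC3B, APOBEC3D, APOBEC3F and APOBEC3G held 2. In APOBEC3G the amino-terminal motif lies at chr22:39080954-39081061 and the carboxy-terminal motif, the catalytic one, at chr22:39086312-39086416. The stretch of APOBEC3A lies at chr22:38961420-38961530, that of APOBEC3C at chr22:39017787-39017891, and those of APOBEC3F at chr22:39044962-39045066 and chr22:39052095-39052199.
APOBEC3G, amino-terminal: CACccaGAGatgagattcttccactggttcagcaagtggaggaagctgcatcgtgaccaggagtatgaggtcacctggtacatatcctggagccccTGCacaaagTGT
APOBEC3G, carboxy-terminal: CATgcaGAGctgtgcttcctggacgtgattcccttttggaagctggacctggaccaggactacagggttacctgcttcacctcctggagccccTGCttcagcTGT
APOBEC3A: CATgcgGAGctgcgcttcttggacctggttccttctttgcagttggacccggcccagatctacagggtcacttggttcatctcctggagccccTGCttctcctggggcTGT
APOBEC3C: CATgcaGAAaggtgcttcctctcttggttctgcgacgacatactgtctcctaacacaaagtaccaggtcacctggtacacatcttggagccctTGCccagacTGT
APOBEC3F, amino-terminal: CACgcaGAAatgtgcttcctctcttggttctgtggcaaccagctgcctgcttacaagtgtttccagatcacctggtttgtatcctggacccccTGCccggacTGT
APOBEC3F, carboxy-terminal: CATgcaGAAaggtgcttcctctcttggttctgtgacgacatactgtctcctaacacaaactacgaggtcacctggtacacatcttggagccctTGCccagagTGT

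Several of these stretches are the same letter for letter in different genes. The 111 bases of APOBEC3A had 0 mismatches to the carboxy-terminal motif of APOBEC3B (chr22:38991365-38991475). The amino-terminal stretch of APOBEC3F had 0 mismatches over 105 bases to that of APOBEC3B, and its carboxy-terminal stretch had 0 to that of APOBEC3D. APOBEC3C differed from the carboxy-terminal stretch of APOBEC3F by 4 of 105 bases. The carboxy-terminal stretch of APOBEC3G had 40 mismatches to APOBEC3H and 45 to 51 to the other stretches of its length. Only stretches of the same length were compared. It was therefore not set against the 111 bases of APOBEC3A and APOBEC3B, and its closest relative in the family is not shown by these counts.

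Over whole coding transcripts the relations were partly different. APOBEC3A and APOBEC3B again shared most with each other, while APOBEC3F shared most with APOBEC3G. Of all stretches of 50 bases in the coding transcripts of a gene, 38.7% of those of APOBEC3B and 36.5% of those of APOBEC3A were also found, on either strand, in another gene of the count table. The share was 21.4% in APOBEC3F, 19.1% in APOBEC3D and 19.1% in APOBEC3G, whose closest partner was APOBEC3F. It was 1.3% in APOBEC3C and 0% in APOBEC3H. Reads from shared stretches may have been dropped or split by the counting, and the length of the reads is not given in the sources used here. The counts of APOBEC3A, APOBEC3B, APOBEC3D, APOBEC3F and APOBEC3G are therefore uncertain. These shares are of stretches and not of reads, so they do not measure by how much. Against all annotated genes, including those with no row in the table analysed here, the share was 86.2% in APOBEC3D and 40.9% in APOBEC3B.

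**Figure D1:**
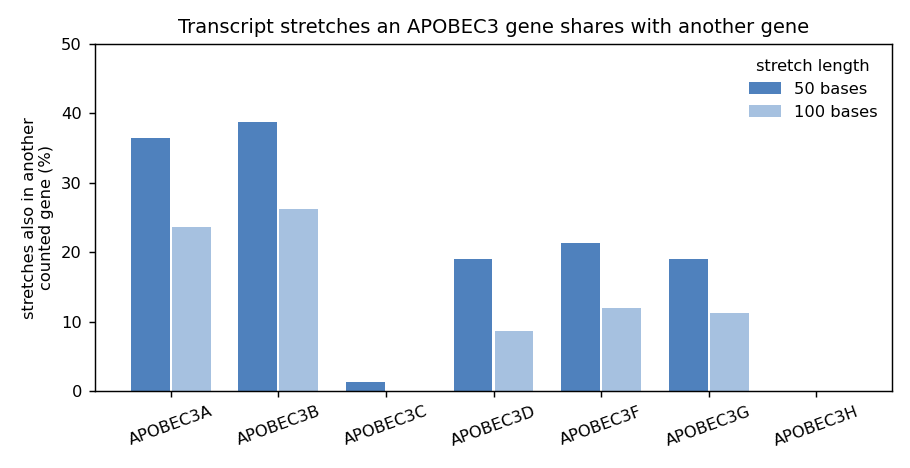
Share (%, vertical axis) of the stretches of each APOBEC3 gene's coding transcripts that also occur in another gene of the count table, for stretches of 50 bases (dark) and 100 bases (light). APOBEC3A and APOBEC3B stand highest (36.5% and 38.7% at 50 bases), APOBEC3C reaches 1.3% and APOBEC3H 0%.

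The genes lie in a row on the plus strand of chromosome 22 (GENCODE 29, GRCh38). APOBEC3A is annotated from 38952741 to 38992778, a span that runs through APOBEC3B (38982347 to 38992804), so that 14.8% of the exonic length of APOBEC3A and 18.4% of that of APOBEC3B overlap each other. APOBEC3C (39014083 to 39020352), APOBEC3D (39021113 to 39033276), APOBEC3F (39040604 to 39053910), APOBEC3G (39077005 to 39087743) and APOBEC3H (39097224 to 39104067) follow, and their exons overlap no other gene of the table. Of the exonic length of APOBEC3D, 83.2% is also covered by the annotated gene AL022318.4, which has no row among those analysed here.

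The libraries held 14824907 to 23108288 counts, and a floor of 3 counts corresponded to 0.129 to 0.196 CPM, which is the count relative to the library's TMM-adjusted total, in a single library. Within each group, any 2 replicates differed beyond counting error (chi-square per degree of freedom 3.13 to 93.3). A marker was taken as present in a group if its counts summed over the 3 libraries exceeded 3, which is looser than the floor for a single library. Of 14 monocytic and myeloid markers, 14 were present in each group. Their summed levels were 2440 to 3220 CPM in WT, 2880 to 3920 CPM in IRF2KO and 2780 to 2860 CPM in IRF2KO_pIRF2. Much of this was ELANE (1310 ± 280 CPM in WT). MPO, which like ELANE marks primary granules, nevertheless stood at 0.405 ± 0.103 CPM in WT. Of the markers of other cells, CD3D and CD8A of T cells, MS4A1 of B cells, HBB, HBA1, ALAS2 and PF4 of erythroid cells and megakaryocytes, and EPCAM and COL1A2 of epithelial cells and fibroblasts had 0 counts in all 9 libraries. By the same rule 4, 5 and 4 of the 8 genes of the T and NK cell list were present in WT, IRF2KO and IRF2KO_pIRF2. Of the 5 B cell genes 4, 3 and 3 were, of the 6 erythroid and megakaryocyte genes 1 each, and of the 6 epithelial and fibroblast genes 2, 2 and 3. The T and NK cell list summed to 290 to 357 CPM in WT, 318 to 453 CPM in IRF2KO and 326 to 343 CPM in IRF2KO_pIRF2, most of it NKG7 (325 ± 34.1 CPM in WT), and the B cell list, which includes PAX5 and CD79A, to 13.7 to 19.1, 19.6 to 30 and 17.7 to 19.3 CPM. The erythroid and megakaryocyte list summed to at most 0.215 CPM in any library. The epithelial and fibroblast list summed to 0.261 to 1.08 CPM in WT, 0.68 to 1.32 CPM in IRF2KO and 2.14 to 2.63 CPM in IRF2KO_pIRF2. Mitochondrially encoded genes took 12.2% to 18.8% of counts. The part of these differences in the results was not tested.

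IRF2 itself, the targeted gene, stood at 37.1, 39.1 and 44.1 CPM in WT replicates 1 to 3, at 23.5, 25.9 and 25.5 CPM in the IRF2KO libraries and at 15.2, 18.1 and 18.4 CPM in the IRF2KO_pIRF2 libraries. It was lower in IRF2KO than in WT (edgeR adjusted p = 0.043) and its counts were lower again in the libraries labelled IRF2KO_pIRF2, a further difference from IRF2KO that did not pass (-0.53 ± 0.13, edgeR adjusted p = 0.24). RNA counts leave the protein unmeasured, and RNA from an added construct need not fall on annotated IRF2 exons. What is said of IRF2KO_pIRF2 libraries therefore depends on the labels alone.

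The family's transcripts were mostly those of APOBEC3C and APOBEC3B, which together took 91% to 95.3% of all APOBEC3 counts in a library. Levels per kilobase of exon adjust for the length of a gene, though not for reads from shared or overlapping stretches. On this scale APOBEC3C, a cytoplasmic and nuclear enzyme with weak activity against HIV-1, stood highest in WT at 34.6 ± 4.57 CPM per kilobase (SD, n = 3), followed by APOBEC3B at 20.5 ± 4.57. APOBEC3D reached 1.46 ± 0.214 CPM per kilobase, APOBEC3G 0.871 ± 0.195, APOBEC3F 0.78 ± 0.203, APOBEC3H 0.117 ± 0.0424 and APOBEC3A 0.00728 ± 0.0126. Among neighbours in that order the WT libraries overlapped for APOBEC3G and APOBEC3F and not for the other pairs.

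The place of APOBEC3G in this order differed between the groups. In IRF2KO the order was APOBEC3C (31.6 ± 1.39 CPM per kilobase), APOBEC3B (22 ± 1.56), APOBEC3D (1.39 ± 0.594), APOBEC3F (0.637 ± 0.0226), APOBEC3G (0.378 ± 0.125), APOBEC3H (0.0722 ± 0.024) and APOBEC3A (0.071 ± 0.049), with overlap between APOBEC3H and APOBEC3A and between no other neighbours. In IRF2KO_pIRF2 it was APOBEC3C (33.4 ± 6.09), APOBEC3B (24.5 ± 2.61), APOBEC3D (1.54 ± 0.183), APOBEC3G (1.02 ± 0.0706), APOBEC3F (0.848 ± 0.107), APOBEC3H (0.164 ± 0.0529) and APOBEC3A (0.0463 ± 0.0427), with overlap between APOBEC3G and APOBEC3F. The exons of APOBEC3G add up to 5437 bases, while its longest transcript has 2775. With the longest transcript as length APOBEC3G stood above APOBEC3D in WT (1.71 ± 0.382 against 1.46 ± 0.214 CPM per kilobase, overlapping) and in IRF2KO_pIRF2 (2.01 ± 0.138 against 1.54 ± 0.183, not overlapping), and it overlapped APOBEC3F in IRF2KO (0.741 ± 0.245 against 0.766 ± 0.0272).

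**Figure D2:**
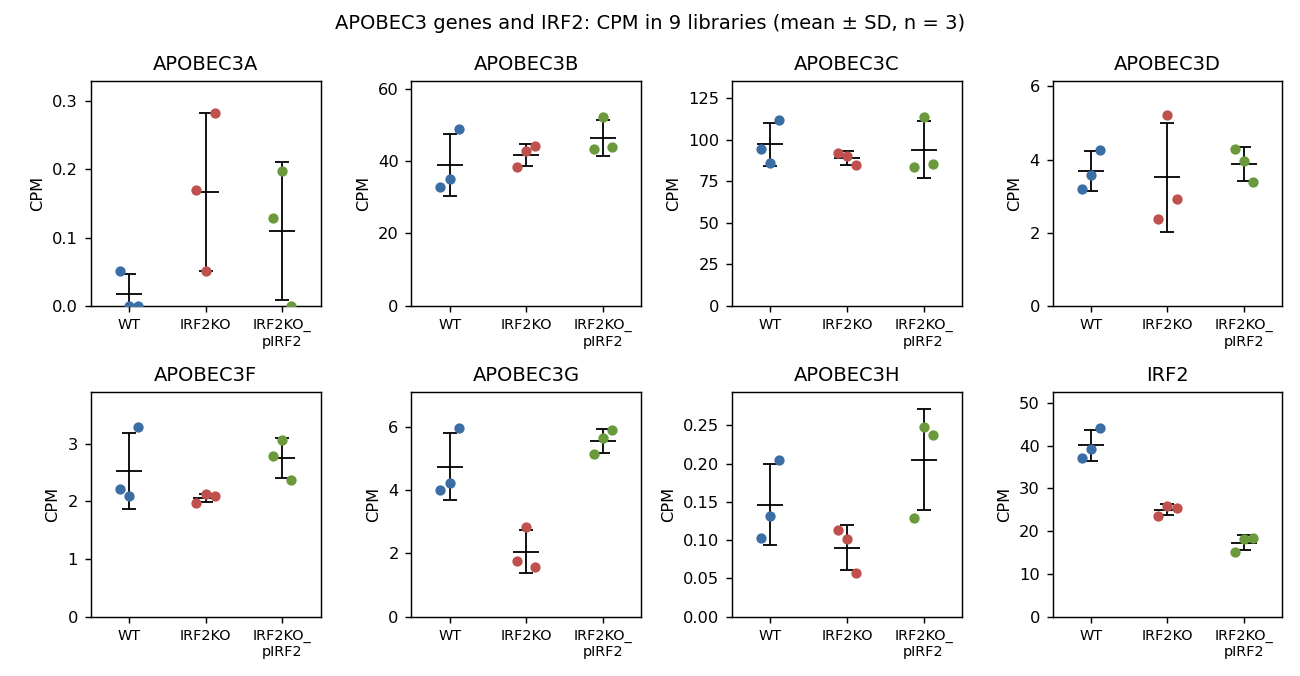
TMM-normalised CPM (vertical axes, each from 0) of the 7 APOBEC3 genes and IRF2 in the 3 libraries of each group. Points are libraries, from left to right replicates 1 to 3, and bars are mean ± SD (n = 3). The IRF2KO libraries of APOBEC3G (1.58 to 2.83 CPM) lie below all libraries of the other groups (4.02 to 5.96 CPM).

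IRF2KO libraries were first set against WT, which asks what follows in the transcripts when IRF2 is disrupted. APOBEC3G, the best known inhibitor of Vif-deficient HIV-1, stood at a level 2.29-fold lower in IRF2KO than in WT, a difference that missed the threshold, while APOBEC3F, APOBEC3C, APOBEC3D and APOBEC3B had log2 fold changes of -0.30 to 0.10. Of the 5 members that passed the filter on low counts, 0 passed the test in either direction by edgeR, 1 had an unadjusted p under 0.05 and 1 passed by DESeq2, in each case APOBEC3G. Of all 11517 genes tested, 0.417% passed by edgeR, 0.0521% higher and 0.365% lower, and 18.7% had an unadjusted p under 0.05, close to the share of 1 in 5 members. By DESeq2, 115 of the 14948 genes that it tested passed. The median log2 fold change was -0.13 over the 5 members and -0.01 over all genes.

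APOBEC3G had 78, 65 and 116 counts in WT replicates 1 to 3, which is 4.02, 4.24 and 5.96 CPM. It had 31, 56 and 28 counts in the IRF2KO libraries, which is 1.76, 2.83 and 1.58 CPM. All 3 IRF2KO libraries were below all 3 WT libraries, as were those of 8.23% of the genes tested; 0 of the 5 members were separated in the higher direction, where 8.97% of all genes were. The level was 4.74 ± 1.06 CPM in WT and 2.06 ± 0.68 CPM in IRF2KO, with a log2 fold change of -1.20 ± 0.25 (SE; 95% interval -1.73 to -0.66; edgeR quasi-likelihood, Benjamini-Hochberg adjusted p = 0.087).

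The difference of APOBEC3G therefore missed the threshold over all genes, and whether it passed depended on the setting. Its adjusted p ranged from 0.0019 to 0.36 over 18 other settings and its log2 fold change from -1.62 to -0.99. It passed with DESeq2 (adjusted p = 0.0020), without the filter on low counts (0.040), without IRF2KO replicate 2 (0.0086) and without WT replicate 1 and IRF2KO replicate 2 together (0.0019), the extremes of principal component 1. It also passed with mitochondrial share added to the model (0.012) and with trends in GC content and length taken out (0.0021, or 0.0048 with a replicate block). Mitochondrial genes took 12.7%, 12.9% and 17.1% of counts in WT replicates 1 to 3, against 12.2%, 18.8% and 18% in IRF2KO and 17.3%, 17.3% and 18% in IRF2KO_pIRF2; their part in the result, beyond that setting, was not tested.

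**Figure D3:**
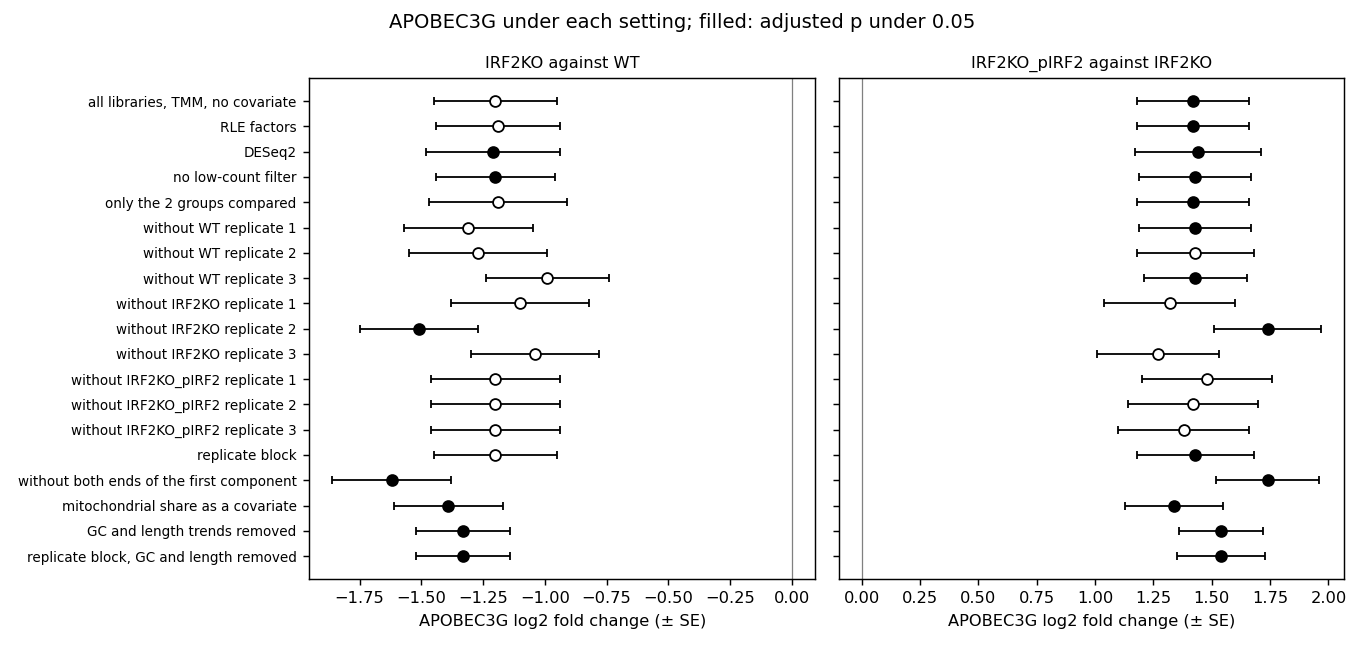
Log2 fold change of APOBEC3G (horizontal axes, ± SE) in IRF2KO against WT (left) and IRF2KO_pIRF2 against IRF2KO (right) with all libraries and under 18 other settings. Filled points have an adjusted p under 0.05; every point lies below 0 on the left (-1.62 to -0.99) and above 0 on the right (1.27 to 1.74).

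The other inhibitors of retroviruses in the family showed smaller differences. APOBEC3F, which acts on HIV-1 alongside APOBEC3G, had 2.21, 2.09 and 3.29 CPM in WT replicates 1 to 3 and 1.98, 2.13 and 2.09 CPM in IRF2KO, and the groups overlapped (log2 fold change -0.30 ± 0.22, 95% interval -0.79 to 0.19, edgeR adjusted p = 0.39). APOBEC3D, a weaker relative with a pair of domains, had 3.19, 3.59 and 4.26 CPM in WT and 2.38, 5.21 and 2.93 CPM in IRF2KO, where replicate 2 stood above all WT libraries (-0.06 ± 0.27, interval -0.65 to 0.53, adjusted p = 0.89). APOBEC3C had 94.3, 86.3 and 112 CPM in WT and 92.3, 90.2 and 84.7 CPM in IRF2KO, again overlapping (-0.13 ± 0.14, interval -0.44 to 0.18, adjusted p = 0.55). Without WT replicate 3 the log2 fold changes were -0.06 for APOBEC3F, 0.06 for APOBEC3D and -0.02 for APOBEC3C, and without IRF2KO replicate 2 that of APOBEC3D was -0.47.

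The members that can act on nuclear DNA behaved as follows. APOBEC3B, the nuclear enzyme, had 32.8, 35.1 and 48.8 CPM in WT replicates 1 to 3 and 38.4, 42.8 and 44 CPM in IRF2KO, with WT replicate 3 above all IRF2KO libraries (0.10 ± 0.16, interval -0.24 to 0.44, edgeR adjusted p = 0.68). Without WT replicate 3 the log2 fold change was 0.30. Its sign turned without WT replicate 1 (-0.01), without WT replicate 1 and IRF2KO replicate 2 together (-0.03) and with mitochondrial share in the model (-0.01). APOBEC3A, known in monocytes as a strongly interferon-induced gene, had 1, 0 and 0 counts in WT and 3, 1 and 5 in IRF2KO. Summed over a group this is 1 count in WT (95% Poisson interval 0.0253 to 5.57) and 9 in IRF2KO (4.12 to 17.1), so its level was at or near the floor of 3 counts in each library.

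APOBEC3H, an enzyme of single-domain build whose protein stability varies between human alleles, had 2, 2 and 4 counts in WT and 2, 2 and 1 in IRF2KO. The group sums were 8 (95% Poisson interval 3.45 to 15.8) and 5 (1.62 to 11.7). APOBEC3A and APOBEC3H did not pass the filter on low counts. Tested without that filter, they had adjusted p-values of 0.29 and 0.60 by edgeR, and a difference between IRF2KO and WT was not detectable for either at this depth.

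The comparison of IRF2KO_pIRF2 with IRF2KO asks whether adding pIRF2 moves the transcripts of knockout cells. APOBEC3G rose 2.69-fold, from 2.06 ± 0.68 to 5.57 ± 0.384 CPM. Of the 5 tested members 1 rose, 0 fell and 4 did not pass, where 0.339% of all genes tested rose, 0.026% fell and 0.365% changed in either direction. The median log2 fold change was 0.15 over the 5 members and 0 over all genes. This comparison shares the IRF2KO libraries with the one against WT, so its values for the same genes are not independent of those above.

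APOBEC3G had 120, 114 and 124 counts in IRF2KO_pIRF2 replicates 1 to 3, which is 5.15, 5.65 and 5.91 CPM. All 3 lay above the 3 IRF2KO libraries, whose highest, replicate 2, was 2.83 CPM, and 11.1% of the genes tested were separated in this direction (11.5% in the lower one). The log2 fold change was 1.42 ± 0.24 (95% interval 0.90 to 1.95; edgeR quasi-likelihood, Benjamini-Hochberg adjusted p = 0.026). Leaving out single libraries ended the call for WT replicate 2 (edgeR adjusted p = 0.056), IRF2KO replicate 1 (0.13), IRF2KO replicate 3 (0.12) or IRF2KO_pIRF2 replicate 1 (0.084), 2 (0.13) or 3 (0.15), and the log2 fold change there ran from 1.27 to 1.48. APOBEC3G was called in the other 12 settings, at adjusted p-values of 3.0e-05 to 0.043.

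APOBEC3F stood at 2.79, 3.07 and 2.38 CPM in IRF2KO_pIRF2 replicates 1 to 3. All 3 were above the IRF2KO libraries, whose highest was 2.13 CPM, but the difference did not pass (0.41 ± 0.22, 95% interval -0.07 to 0.89, edgeR adjusted p = 0.45). APOBEC3B stood at 43.2, 52.1 and 43.9 CPM (0.15 ± 0.16, interval -0.19 to 0.49, adjusted p = 0.64), overlapping the IRF2KO libraries. APOBEC3C stood at 83.4, 114 and 85.2 CPM (0.08 ± 0.14, interval -0.23 to 0.39, adjusted p = 0.78), and APOBEC3D at 4.30, 3.97 and 3.38 CPM (0.14 ± 0.27, interval -0.44 to 0.72, adjusted p = 0.80). Both overlapped the IRF2KO libraries, and in APOBEC3C it was replicate 2 that stood apart from its group. APOBEC3A had 3, 4 and 0 counts and APOBEC3H 3, 5 and 5, near the floor in both groups (edgeR adjusted p = 0.79 and 0.55 without the filter), although in CPM the APOBEC3H libraries did not overlap.

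**Figure D4:**
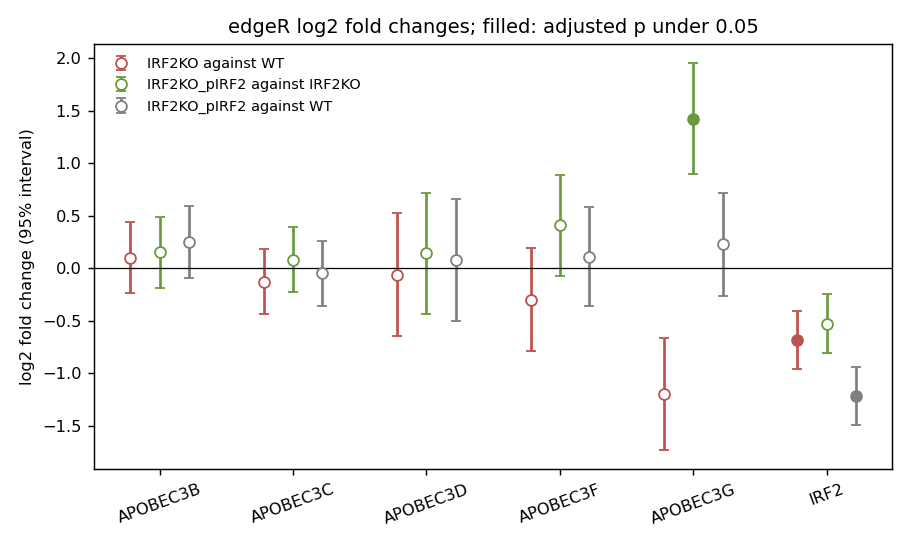
Log2 fold changes (vertical axis) with 95% intervals from edgeR for the 5 tested APOBEC3 genes and IRF2 in the 3 comparisons, which share libraries. Filled points have an adjusted p under 0.05: among the APOBEC3 genes this is APOBEC3G in IRF2KO_pIRF2 against IRF2KO (1.42).

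Set against WT, the IRF2KO_pIRF2 libraries show how far each member was from its level in cells labelled WT. The 5 tested members had log2 fold changes of -0.05 to 0.25, with 0 of 5 past the edgeR test, 0 at an unadjusted p under 0.05 and 0 by DESeq2, where 0.0781% of all genes passed by edgeR (0.0347% higher and 0.0434% lower). The libraries of 0 of 5 members were separated, against 5.81% of all genes in the higher and 5.75% in the lower direction. APOBEC3G was at 5.57 ± 0.384 CPM against 4.74 ± 1.06 CPM in WT (0.23 ± 0.22, 95% interval -0.26 to 0.72, edgeR adjusted p = 1), and WT replicate 3 (5.96 CPM) stood above all 3 IRF2KO_pIRF2 libraries. With mitochondrial share in the model its log2 fold change was -0.06. The intervals were -0.09 to 0.59 for APOBEC3B, -0.36 to 0.26 for APOBEC3C, -0.50 to 0.66 for APOBEC3D and -0.36 to 0.58 for APOBEC3F, so that differences within these bounds cannot be told from none with 3 libraries a group. Without WT replicate 3 the log2 fold changes were 0.45 for APOBEC3B (unadjusted p = 0.0071, edgeR adjusted p = 0.42), 0.43 for APOBEC3G (adjusted p = 0.50), 0.35 for APOBEC3F, 0.20 for APOBEC3D and 0.06 for APOBEC3C.

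The genes whose pattern over the 9 libraries was most like that of APOBEC3G were found by the root mean square difference of log2 CPM after each gene was centred on its own mean, leaving out the APOBEC3 genes. They were TAPBPL, a peptide editor of MHC class I (0.225), and OAS2, an oligoadenylate synthetase (0.274), while the median over all genes was 0.707. TAPBPL stood at 1.81 ± 0.289 CPM in WT, 1.03 ± 0.185 in IRF2KO and 2.59 ± 0.151 in IRF2KO_pIRF2. OAS2 stood at 1.26 ± 0.296, 0.559 ± 0.143 and 2.02 ± 0.535 CPM in the same order. In both genes the IRF2KO libraries lay below all other libraries. They were chosen for likeness to APOBEC3G over these same libraries, so a shared low level in IRF2KO follows largely from the choice.

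**Figure D5:**
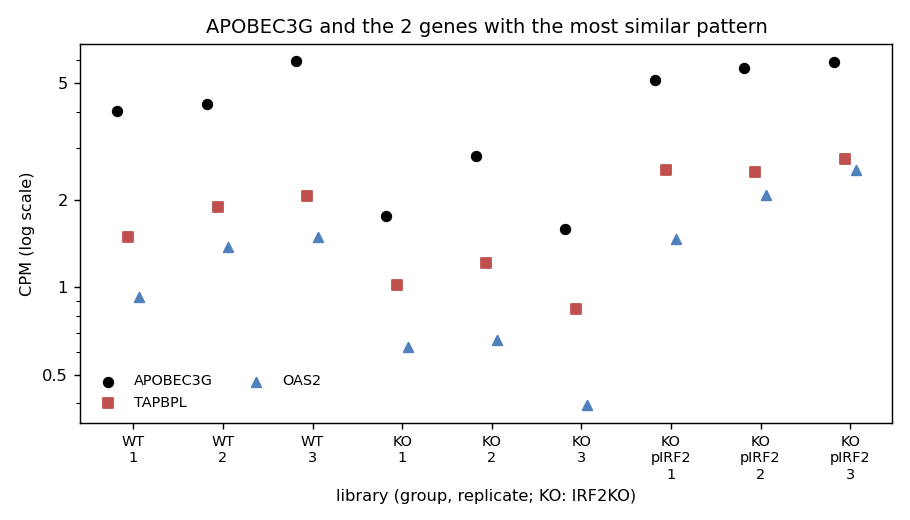
CPM (vertical axis, log scale) of APOBEC3G and the 2 genes with the most similar pattern in each of the 9 libraries (horizontal axis). Each point is a library. All 3 genes are lowest in the 3 IRF2KO libraries, for example TAPBPL at 0.845 to 1.21 CPM, and the 2 genes were chosen for this likeness.

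The remaining members had other nearest genes, at smaller differences. Their medians over all genes were smaller too, at 0.298 for APOBEC3B, 0.273 for APOBEC3C, 0.368 for APOBEC3D and 0.331 for APOBEC3F. APOBEC3B was closest to RNF4, a SUMO-targeted ubiquitin ligase (0.0691), ATXN2, an RNA-binding protein (0.076), and CCNK, a cyclin of transcription (0.0761). APOBEC3C was closest to EIF2AK1, the haem-regulated kinase of translation (0.0563), PDIA5, a disulphide isomerase (0.0621), and WASF1, an actin regulator (0.0651). APOBEC3D was closest to LYRM9 (0.122), TMEM63A, an ion channel (0.124), and OLIG1, a transcription factor (0.131), and like APOBEC3D each of these had its highest value in IRF2KO replicate 2. APOBEC3F was closest to SEPT6, a septin (0.0968), USP2, a deubiquitinase (0.0972), and RPN2, a subunit of the oligosaccharyltransferase (0.115). The range of APOBEC3G over the libraries was 1.85 on the log2 scale, against 1.10 for APOBEC3D, 0.70 for APOBEC3F, 0.66 for APOBEC3B and 0.45 for APOBEC3C.

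Genes around the cluster gave the local comparison. Of 23 protein-coding genes within 500 kb, 18 were tested, and 0 passed by edgeR or DESeq2 in any of the 3 comparisons, with 3, 3 and 0 at an unadjusted p under 0.05 in IRF2KO against WT, IRF2KO_pIRF2 against IRF2KO and IRF2KO_pIRF2 against WT. Over all genes 18.7%, 11.2% and 3.92% had such a p, and the counts of the lists below are to be read beside these shares. The neighbours' median log2 fold changes were 0.22, -0.17 and -0.01. CBX6, a Polycomb protein and the nearest tested gene before APOBEC3A, stood at 20.9 ± 3.06 CPM in WT, 33.3 ± 9.95 in IRF2KO and 23.4 ± 2.17 in IRF2KO_pIRF2, with a log2 fold change of 0.67 ± 0.20 in IRF2KO against WT that did not pass (edgeR adjusted p = 0.26). CBX7, another Polycomb protein and the nearest tested gene after APOBEC3H, stood at 5.06 ± 2.04, 6.47 ± 1.82 and 4.97 ± 0.943 CPM (0.35 ± 0.29 in IRF2KO against WT, adjusted p = 0.42).

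Of 8 genes of the AID/APOBEC relatives and RNA adenosine deaminases, 2 were tested, ADAR and ADARB1. APOBEC1, its RNA-binding cofactor A1CF, APOBEC2 and APOBEC4 stood at 0 CPM in each group. By edgeR 0 of 2 passed in each comparison, with medians of 0.14, -0.15 and -0.01, and 1 of 2, ADAR, had an unadjusted p under 0.05 in each. ADAR, which turns adenosine into inosine in double-stranded RNA, stood at 384 CPM in WT and 523 ± 23.9 in IRF2KO (0.45 ± 0.09, edgeR adjusted p = 0.079), and it passed by DESeq2 in that comparison and not in the other 2.

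Other cellular inhibitors of retroviruses and retroelements formed one of the larger lists. In IRF2KO against WT, 0 of 18 tested genes rose, 1 fell and 17 did not pass by edgeR, 8 had an unadjusted p under 0.05 (18.7% of all genes did) and 4 passed by DESeq2, with a median log2 fold change of 0.02. The gene that fell was MX1, an interferon-induced GTPase, from 2.94 ± 0.176 to 0.853 ± 0.341 CPM (-1.78 ± 0.27, edgeR adjusted p = 0.0095). BST2, which tethers budding virions, had 87.9 ± 4.76 CPM in WT and 124 ± 10.2 in IRF2KO (0.50 ± 0.10, adjusted p = 0.087), TRIM22, a ubiquitin ligase, had 4.83 ± 1.11 and 2.44 ± 0.522 CPM (-0.99 ± 0.22, adjusted p = 0.13), and TRIM5, which binds retroviral capsids, had 14.6 ± 3.59 and 7.24 ± 2.04 CPM (-1.01 ± 0.23, adjusted p = 0.14). In IRF2KO_pIRF2 against IRF2KO, 0 of 18 passed by edgeR and 1 by DESeq2 (median 0.08). An unadjusted p under 0.05 was seen in 6 of them, and in 11.2% of all genes. MX1 stood at 2.06 ± 0.247 CPM in IRF2KO_pIRF2 (1.26 ± 0.27, edgeR adjusted p = 0.13) and TRIM22 at 4.55 ± 0.369 CPM (0.90 ± 0.22, adjusted p = 0.26). Against WT 0 of 18 passed, 3 had an unadjusted p under 0.05 (3.92% of all genes did) and 0 passed by DESeq2 (median 0.06).

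Genes that act on APOBEC3 proteins or on their product, uracil in DNA, had no member past the edgeR test. Of 7 genes of CBFB and the cullin-5 ligase, 0 passed in each comparison, with 0 at an unadjusted p under 0.05 and 0 by DESeq2, and medians of -0.29, 0.03 and -0.18. CBFB, the factor that stabilises Vif, stood at 78.6 ± 20.4 CPM in WT and 61.5 ± 16.7 in IRF2KO (-0.36 ± 0.21, edgeR adjusted p = 0.32). ELOB, with the smallest p of this list in that comparison, stood at 75.9 ± 0.118 and 88.9 ± 11.3 CPM (0.23 ± 0.11, edgeR adjusted p = 0.27). Of the 7 log2 fold changes there, 2 were positive and 5 negative. Of 11 genes of uracil removal and base excision repair, 0 passed in each comparison by edgeR or DESeq2, with 3, 1 and 1 at an unadjusted p under 0.05 and medians of 0.04, -0.04 and -0.06. MBD4, a glycosylase of mismatched thymine and uracil, stood at 29.6 ± 1.79 CPM in WT and 22.7 ± 2.76 in IRF2KO (-0.38 ± 0.12, edgeR adjusted p = 0.26). POLB, the gap-filling polymerase, stood at 21.2 ± 1.11 and 17.3 ± 1.36 CPM (-0.30 ± 0.13, adjusted p = 0.27). NTHL1 went the other way, at 9.46 ± 1.82 CPM in WT and 13.1 ± 3.42 in IRF2KO (0.47 ± 0.21, edgeR adjusted p = 0.27). In IRF2KO_pIRF2 NTHL1 stood at 8.55 ± 1.21 CPM (-0.62 ± 0.21 against IRF2KO, edgeR adjusted p = 0.44).

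Regulators linked to APOBEC3B and the interferon regulatory factors completed the lists. Of 12 DREAM and B-MYB genes, which control cell-cycle transcription, 0 passed by edgeR or DESeq2 in each comparison, with 0, 1 and 0 at an unadjusted p under 0.05 and medians of -0.12, 0.10 and 0.09. RBL2, a pocket protein of the DREAM complex, stood at 104 ± 6.43 CPM in WT and 90.2 ± 10.3 in IRF2KO (-0.21 ± 0.11, edgeR adjusted p = 0.28), and RBBP4, a histone-binding subunit, at 324 ± 38.3 CPM in IRF2KO and 397 ± 15.2 in IRF2KO_pIRF2 (0.29 ± 0.11, adjusted p = 0.44). Of 7 tested genes of non-canonical NF-kB and protein kinase C, 0 passed by either tool, with 1, 0 and 0 at an unadjusted p under 0.05 and medians of 0.23, -0.10 and 0.06. The gene at that p was MAP3K14, the kinase of that pathway, at 2.02 ± 0.301 CPM in WT and 3.47 ± 0.651 in IRF2KO (0.78 ± 0.21, adjusted p = 0.24). Of 8 tested genes of the interferon regulatory factors and ISGF3, 1 fell in IRF2KO against WT and 1 in IRF2KO_pIRF2 against WT, in each case IRF2, and 0 passed in IRF2KO_pIRF2 against IRF2KO (2 at an unadjusted p under 0.05 and 1 by DESeq2). Their medians were 0.28, -0.02 and -0.21 in that order. STAT2, which carries interferon signals to the nucleus, stood at 29.7 ± 6.24 CPM in WT and at 41 ± 10.9 in IRF2KO (0.47 ± 0.20, edgeR adjusted p = 0.27).

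Marker genes of cell types were put through the same test. Of 13 tested monocytic and myeloid markers, 0 passed by edgeR in each comparison, with 3, 3 and 2 at an unadjusted p under 0.05 in IRF2KO against WT, IRF2KO_pIRF2 against IRF2KO and IRF2KO_pIRF2 against WT, and 1, 0 and 0 by DESeq2. Of 2 tested T and NK cell genes and 3 tested B cell genes 0 passed by either tool, with 0 and 1 at an unadjusted p under 0.05 in IRF2KO against WT and 0 in the other comparisons. The single tested gene of the epithelial and fibroblast list was COL1A1, a fibrillar collagen, at 0.54 ± 0.398 CPM in WT, 0.754 ± 0.182 in IRF2KO and 2.15 ± 0.313 in IRF2KO_pIRF2, which did not pass by edgeR against WT (adjusted p = 0.17) and passed by DESeq2. No gene of the erythroid and megakaryocyte list was tested.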

How the data were processed

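Bulk RNA-seq of U937-Cas9 cells was used, with 3 libraries each of WT, IRF2KO and IRF2KO_pIRF2. The authors deposited whole-number counts for each gene and library in a single table. HTSeq 0.9.1, TopHat2 2.1.1, Bowtie2 2.3.3, bedtools, SAMtools and build hg38 are named per the submitters' processing notes. What each did, which annotation was counted, and how strand and shared reads were treated is not given in the sources used here. Symbols and positions came from GENCODE 29 on GRCh38, counted from 1, and 20012 of 20265 identifiers matched after their versions were removed.

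Counts were filtered with filterByExpr, which left 11517 genes, and scaled with TMM factors. Differences were tested by edgeR 4.0.16 (quasi-likelihood F-test; R 4.3.3). A single model held the 9 libraries, without covariates. Adjusted p-values are Benjamini-Hochberg adjusted over all genes tested, with a threshold of 0.05. The SE of a log2 fold change is its size over the square root of F, and 95% intervals use the total degrees of freedom of the fit. The floor of 3 counts and the Poisson intervals cover counting error only, since no molecular identifiers are stated. DESeq2 1.42.0 and the other alternatives are described with their effects. GC and length trends were removed with splines of 5 degrees of freedom. The fit was tested on simulated counts. Named genes were the 7 members, IRF2, genes of fixed lists with the smallest p, tested neighbours within 500 kb, and the 3 genes most alike per member, on log2 CPM with a prior count of 2. Some genes that this rule names are not reported here. Levels per kilobase used the union of exons. The members, the lists and the tests were chosen with earlier results of these data known.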

Additional observations from a re-analysis of the deposited data

How the results depend on the processing

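Of 270 log2 fold changes of the 5 tested members under other settings, 239 kept their direction and their side of the threshold, 7 gained a call, 6 lost one and 18 turned sign. All gained and lost calls were of APOBEC3G, and the cause was not tested. In IRF2KO against WT the count of members called was 0, and 1 with DESeq2, without the filter on low counts, without both end libraries, with mitochondrial share in the model, and with GC and length trends taken out, with or without the replicate block. The end libraries are WT replicate 1 and IRF2KO replicate 2, the extremes of principal component 1. The count was 0 to 1 when single libraries were left out (1 without IRF2KO replicate 2). In IRF2KO_pIRF2 against IRF2KO it was 1, and 0 to 1 when single libraries were left out. In IRF2KO_pIRF2 against WT it was 0 under each setting run. Over single libraries left out, log2 fold changes in IRF2KO against WT ran from -0.01 to 0.30 for APOBEC3B, -0.21 to -0.02 for APOBEC3C, -0.47 to 0.15 for APOBEC3D and -0.41 to -0.06 for APOBEC3F. In IRF2KO_pIRF2 against IRF2KO they ran from 0.06 to 0.20 for APOBEC3B, -0.08 to 0.16 for APOBEC3C and -0.07 to 0.55 for APOBEC3D, and in IRF2KO_pIRF2 against WT from 0.14 to 0.45 for APOBEC3B, -0.21 to 0.06 for APOBEC3C, -0.02 to 0.20 for APOBEC3D, 0 to 0.35 for APOBEC3F and 0.12 to 0.43 for APOBEC3G.

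The values whose sign turned lay between -0.27 and 0.15, and none was called. In IRF2KO against WT this held for APOBEC3B without WT replicate 1 (-0.01), without both end libraries (-0.03) and with the mitochondrial share (-0.01), and for APOBEC3D without WT replicate 3 (0.06), IRF2KO replicate 1 (0.15) or IRF2KO replicate 3 (0.05). In IRF2KO_pIRF2 against IRF2KO it held for APOBEC3D without IRF2KO replicate 1 (-0.07) and APOBEC3C without IRF2KO_pIRF2 replicate 2 (-0.08). In IRF2KO_pIRF2 against WT it held for APOBEC3C without WT replicate 3 (0.06), IRF2KO_pIRF2 replicate 1 (0.03) or 3 (0.02), APOBEC3D without WT replicate 1 (-0.02), IRF2KO_pIRF2 replicate 1 (0) or both end libraries (-0.02), APOBEC3F without WT replicate 2 (0), and, with the mitochondrial share, APOBEC3D (-0.27), APOBEC3F (-0.06) and APOBEC3G (-0.06).

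Over all genes, IRF2KO against WT called 48 (12.5% higher), 115 by DESeq2 (41.7% higher), 31 with just the 2 groups compared in the fit, 105 with GC and length trends taken out (36.2% higher) and 81 with the replicate block besides (28.4% higher), and 34 to 49 with a library left out. IRF2KO_pIRF2 against IRF2KO called 42, 64 by DESeq2, 66 with GC and length trends taken out, and 26 to 47 with a library left out. IRF2KO_pIRF2 against WT called 9, 38 by DESeq2, 18 without the filter, 16 with just the 2 groups compared in the fit, 27 without both end libraries, 40 with GC and length trends taken out, 33 with the replicate block besides, and 3 to 25 with a library left out.

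The replicate numbers were not taken to pair samples: deviations from the group means correlated at -0.43 to 0.606 between samples of the same number and at -0.73 to 0.707 between others. With the replicate block alone APOBEC3G had log2 fold changes of -1.20 (edgeR adjusted p = 0.13) in IRF2KO against WT and 1.43 (0.043) in IRF2KO_pIRF2 against IRF2KO, and no call of a member changed. Levels per kilobase moved by more than 1 SD in 5 of 21 cases with the longest transcript as length and in 0 with RLE factors. Shared stretches fell with 100 bases in place of 50 to 11.3% in APOBEC3G and 26.3% in APOBEC3B. Counts of 0 to 5 per library limit APOBEC3A and APOBEC3H.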
